A study of Mus musculus with 4 samples.

Results

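The immediate early genes Fos, Jun, Junb, Egr1, Ier2, Ier3, Dusp1, Zfp36, Btg2 and Klf6 were examined in liver as 10 of the 19938 genes named on the arrays. A gene was read from probe sets annotated to exactly 1 symbol, by the one with the highest mean, and each of the 10 genes had 1 such probe set. Total liver RNA from 4 mice was hybridised to 1 array per mouse (Affymetrix Mouse Gene 1.0 ST), and the study used these mice as a model of fatty liver. All 4 were males of the aP2-SREBP-1c line on a C57Bl6 background, given in the labels as C57Bl6-TgN aP2-HA-hSREBP-1c-NT, aged 24 weeks, fed regular chow and killed with CO2 at 7:00 am. They carried the human SREBP-1c amino-terminal part under the aP2 promoter, which is active in adipocytes, so that the transgene was not aimed at the liver. They form 1 group, and control livers were not analysed here, so every comparison is between these 4 mice or between the 10 genes and the other genes of the same arrays, and no test between groups was possible.

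Immediate early genes are transcribed within minutes of a stimulus without need of new protein, because the factors that switch them on, such as serum response factor (SRF) with its partners and the cAMP-responsive factor CREB, are already present and are activated by kinases. Their mRNAs are short-lived, so their level in a tissue follows recent signals, including feeding, hormones, handling and injury. Some encode transcription factors that start the next round of gene expression, and others encode proteins that end the signal or degrade the mRNAs.

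The bases before the start of transcription are shown for the 3 genes with an entry among the 4 that varied most between the mice (Dusp1, Ier3, Klf6), and for Zfp36, whose order of mice resembled that of Dusp1. Sequences are from RefSeq (GRCm38.p6), 250 bases ending just before the start, and 8 of the 10 genes were matched, Egr1 and Ier2 not being among them. Capitals mark matches on either strand to the CRE core (TGACG), the full CRE (TGACGTCA), the AP-1 site (TGANTCA), the CArG box, the EGR site (GCGNGGGCG), the GC box (GGGCGG), the CCAAT box (CCAAT) and the TATA box (TATAAA), the CRE core being part of the full CRE. The stretches lie at chr17:26508473-26508722 (minus strand) for Dusp1, chr17:35821463-35821712 (plus strand) for Ier3, chr13:5861239-5861488 (plus strand) for Klf6 and chr7:28379229-28379478 (minus strand) for Zfp36.
Dusp1: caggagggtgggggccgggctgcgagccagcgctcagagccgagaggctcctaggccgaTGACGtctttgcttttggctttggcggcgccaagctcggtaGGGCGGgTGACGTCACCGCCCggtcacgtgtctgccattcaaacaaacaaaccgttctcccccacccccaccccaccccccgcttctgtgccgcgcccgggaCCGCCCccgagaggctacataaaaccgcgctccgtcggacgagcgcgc
Ier3: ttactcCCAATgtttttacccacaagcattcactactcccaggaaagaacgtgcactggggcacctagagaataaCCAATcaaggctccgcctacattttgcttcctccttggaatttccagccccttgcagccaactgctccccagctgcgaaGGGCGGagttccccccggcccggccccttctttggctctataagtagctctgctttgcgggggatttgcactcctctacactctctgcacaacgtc
Klf6: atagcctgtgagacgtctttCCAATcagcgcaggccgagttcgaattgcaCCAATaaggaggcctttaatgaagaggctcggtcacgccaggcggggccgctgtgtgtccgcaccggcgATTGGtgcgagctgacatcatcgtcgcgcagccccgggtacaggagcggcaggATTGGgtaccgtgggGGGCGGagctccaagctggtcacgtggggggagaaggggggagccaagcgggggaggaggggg
Zfp36: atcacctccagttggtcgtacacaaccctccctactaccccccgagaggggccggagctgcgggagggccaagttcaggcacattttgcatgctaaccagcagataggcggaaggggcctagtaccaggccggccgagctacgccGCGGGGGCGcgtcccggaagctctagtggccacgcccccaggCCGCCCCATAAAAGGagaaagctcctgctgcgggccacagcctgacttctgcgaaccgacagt

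The full CRE, the letters that CREB binds, was present upstream of Dusp1 at bases -143 to -136 and upstream of Btg2 at bases -166 to -159, against 1.55% of the 32851 promoters searched. Its core was found in 4 of 8 members (Fos, Junb, Dusp1 and Btg2), against 17.8% of all promoters. The CArG box, the letters bound by SRF, was found in Zfp36 at bases -58 to -49, where it shares its first base with a GC box, and in 1.47% of all promoters. The EGR site was present in Zfp36 and Btg2, against 4.7% of all promoters, and the GC box in 7 of 8 members, against 32.7%. CCAAT was found in Jun, Junb, Ier3, Btg2 and Klf6, against 33.8% of all promoters, with 4 copies in Klf6 and a pair each in Ier3 and Btg2. TATAAA was found in Fos, against 12.4% of all promoters, and the AP-1 site in 0 of 8 members, against 6.75%. A match is a run of letters and not a measured binding site. The members' stretches held between 54.4% (Ier3) and 73.2% (Btg2) G or C, and words rich in these letters occur more often in such sequence. The promoters searched were not matched for this, so the shares do not set immediate early genes apart from other GC-rich promoters. Only the letters given above were searched, and only in the stretch just before the start. A site spelled otherwise or lying farther upstream would be missed, so a missing match does not show that a gene lacks the site.

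All 10 genes were above background on all 4 arrays, against 61.5% of the 19938 named genes. Background was set by 1212 receptor probe sets of smell and pheromone sensing (olfactory and vomeronasal) on the same array, at their 95th percentile, which lay at 5.52, 5.35, 5.34 and 5.33 in mice 1 to 4 on the log2 scale of the robust multi-array average (RMA). Fos, Ier2 and Ier3 had means less than 0.5 above this limit. Jun, Egr1, Dusp1, Zfp36 and Btg2 were also above the 99th percentile of the receptor probe sets on every array. Levels of different probe sets depend on their probes and are not set against each other here.

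Egr1, Ier3, Dusp1 and Klf6, 4 of the 10 genes (40%), spanned more than 1.5-fold over the 4 livers, from the lowest to the highest value, against 12.9% of the 12265 genes above background. The smallest fold beyond this threshold was 1.57 (Egr1) and the largest within it 1.38 (Fos). The median SD between mice was 0.20 on the log2 scale for the 10 genes and 0.15 for all genes, and 7 of the 10 lay above the median SD of genes of like mean level. At the other end, Btg2 had an SD smaller than that of most genes of its level. Among all genes, the SD ranked at the 96.0th percentile for Ier3 and Dusp1, the 95.3rd for Klf6 and the 92.8th for Egr1, and within the tenth of genes of its own level at the 98.5th for Ier3, the 95.4th for Dusp1, the 95.1st for Klf6 and the 92.6th for Egr1. Fos ranked at the 75.4th, Zfp36 at the 62.7th and Junb at the 51.2nd percentile of all genes, and Jun at the 31.1st, Ier2 at the 21.4th and Btg2 at the 12.6th. These ranks and counts over 10 chosen genes are a description.

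**Figure D1:**
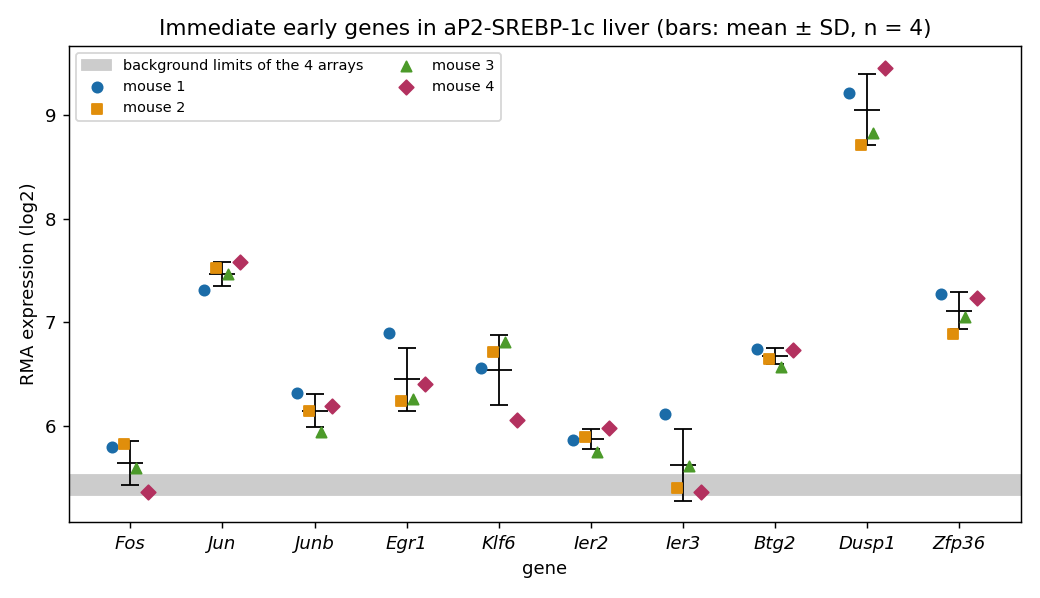
RMA expression (log2) of the 10 immediate early genes in the 4 aP2-SREBP-1c livers, each point being 1 mouse, the bar the mean ± SD (n = 4) and the grey band the background limits of the 4 arrays. Points spread widest for Ier3, Dusp1, Klf6 and Egr1 and lie closest for Btg2, and levels should be compared along a gene, not between genes.

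Fos, Jun and Junb encode subunits of AP-1, a dimeric transcription factor of cell growth and stress. Fos was measured at 5.79, 5.82, 5.59 and 5.36 in mice 1 to 4, with a mean of 5.64 ± 0.21 (SD, n = 4). It was lowest in mouse 4, where it exceeded background by only 0.03. Jun (7.31, 7.52, 7.46 and 7.58 in mice 1 to 4) ran differently, being highest in mouse 4 and lowest in mouse 1, but its 4 values lay within 1.21-fold. Junb was measured at 6.32, 6.14, 5.94 and 6.19, within 1.30-fold, with its highest value in mouse 1 and its lowest in mouse 3. None of the 3 AP-1 members passed the 1.5-fold threshold.

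Egr1 and Klf6 encode zinc finger transcription factors, and both are induced in liver during regeneration and injury. Egr1 was measured at 6.89 in mouse 1 and at 6.24, 6.26 and 6.41 in mice 2 to 4, a mean of 6.45 ± 0.30 (SD, n = 4) and a 1.57-fold difference. Mouse 1 was high and the other 3 mice lay close together, within 1.12-fold. Klf6 showed another pattern, with 6.56, 6.71 and 6.82 in mice 1 to 3 and 6.06 in mouse 4, a mean of 6.54 ± 0.34 (SD, n = 4) and a 1.69-fold difference. Here mouse 4 was the low one, and mice 1 to 3 lay within 1.19-fold.

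Ier3 encodes a protein that modulates survival signalling, Ier2 a nuclear protein, and Btg2 an antiproliferative protein that binds the CCR4-NOT deadenylase. Ier3 was measured at 6.11 in mouse 1 and at 5.40, 5.62 and 5.36 in mice 2 to 4, a mean of 5.62 ± 0.35 (SD, n = 4) and a 1.68-fold difference. As for Egr1, mouse 1 was the high one, and the other 3 lay within 1.19-fold. In mice 2 and 4 Ier3 exceeded background by 0.05 and 0.03, so that its low values were close to what the arrays could measure. Ier2 (5.86, 5.90, 5.75 and 5.98 in mice 1 to 4) stayed within 1.18-fold. Btg2 was the steadiest of the 10 genes, at 6.74, 6.65, 6.57 and 6.73, a mean of 6.67 ± 0.08 (SD, n = 4), its 4 values lying within 1.12-fold.

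Dusp1 encodes a nuclear phosphatase that inactivates MAP kinases and is induced by stress and by glucocorticoids, and Zfp36 encodes tristetraprolin, which binds AU-rich elements and recruits the CCR4-NOT complex to destroy the mRNA. Dusp1 was measured at 9.22, 8.71, 8.83 and 9.46 in mice 1 to 4, a mean of 9.06 ± 0.34 (SD, n = 4) and a 1.68-fold difference. Mice 4 and 1 had the higher values and mouse 2 the lowest, and all 4 values were more than 3 log2 units above background. Zfp36 was measured at 7.27, 6.88, 7.05 and 7.24, a mean of 7.11 ± 0.18 (SD, n = 4) and a 1.31-fold difference. Its lowest value was also in mouse 2, followed by mouse 3, but its highest was in mouse 1.

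The 4 genes beyond 1.5-fold fell into pairs by the mouse whose removal took them below the threshold. This pairing depends on the threshold, and mouse 4 was the highest for Dusp1 but the lowest for Klf6. Without mouse 1, Dusp1 (1.68-fold) and Klf6 (1.69-fold) stayed beyond the threshold while Egr1 (1.12-fold) and Ier3 (1.19-fold) did not, so that 2 of the 10 genes were left, against 2.7% of 12762 genes above background on those arrays. Without mouse 4, Egr1 and Ier3 stayed beyond it while Dusp1 (1.42-fold) and Klf6 (1.19-fold) did not, leaving 2 of 10 genes, against 10.2% of 12409 genes. Leaving out mouse 2 or mouse 3 left the 4 genes beyond it.

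The 10 genes did not follow one order of mice. They showed 8 different orders of the 4 mice, and 2 of the 45 pairs of members shared an order, Egr1 with Zfp36 and Junb with Btg2. Likeness between genes was measured as the Euclidean distance between the deviations of the 4 mice from each gene's mean, which is small for any 2 steady genes and is a description of 4 points. The closest pair was Ier2 and Btg2 at 0.11. Among genes that varied more, the distance was 0.28 between Egr1 and Ier3 and 0.34 between Dusp1 and Zfp36. Dusp1 and Klf6 were farthest apart at 1.15, mouse 4 being the highest for Dusp1 and the lowest for Klf6. Within AP-1, Fos lay 0.52 from Jun.

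**Figure D2:**
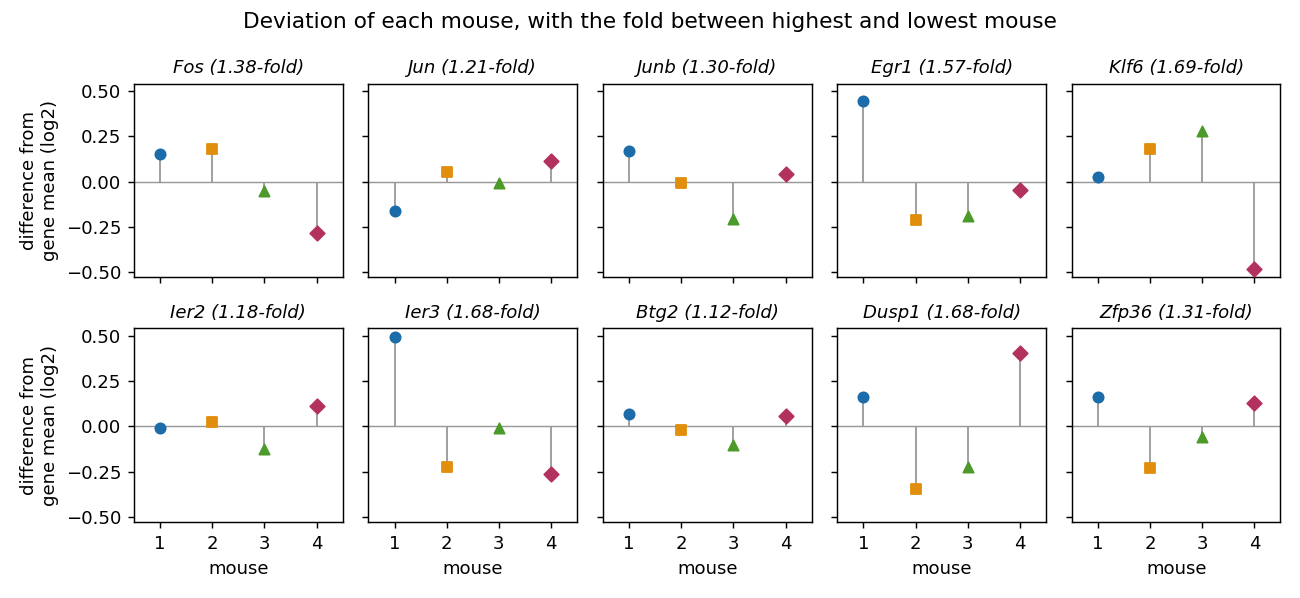
Deviation of each mouse from the mean of the gene (log2) for the 10 immediate early genes, across mice 1 to 4. Egr1 and Ier3 peak in mouse 1, Dusp1 is high in mice 1 and 4, and Klf6 drops in mouse 4, while Btg2 and Ier2 stay near 0.

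Among the 12265 genes above background, the 3 nearest in pattern to Dusp1 were Bdh2 at a distance of 0.01, B3galt1 at 0.05 and Lifr at 0.07. Lifr, a cytokine receptor gene, was measured at 9.43, 8.95, 9.06 and 9.61 in mice 1 to 4. Nearest to Klf6 were Abtb1 at 0.06, Barx1 at 0.07 and Tmem247 at 0.14. Egr1 was followed by Ntng1 at 0.02, Grm4 at 0.05 and Zscan25 at 0.05, and Ier3 by A330023F24Rik at 0.05, Sstr4 at 0.08 and Slc35e4 at 0.08. The likeness rests on 4 values per gene.

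By mouse, 5 of the 10 genes were highest in mouse 1 (Junb, Egr1, Ier3, Zfp36 and Btg2), against 22.9% of all genes above background. The highest value lay in mouse 2 for 1 gene (Fos), against 20.9% of all genes, and in mouse 3 for 1 gene (Klf6), against 31.4%. It lay in mouse 4 for 3 genes (Jun, Ier2 and Dusp1), against 24.9%. Of the 10 genes, 1 (Jun) was lowest in mouse 1, against 46.1% of all genes. Set against the average of the remaining mice, the median difference of the 10 genes was 0.21 in mouse 1, -0.02 in mouse 2, -0.11 in mouse 3 and 0.06 in mouse 4 on the log2 scale. Over all genes the same medians were -0.08, 0.03, 0.05 and 0.02, and 8 of the 10 genes were above the mean of the other mice in mouse 1, against 37.6% of all genes. Without mouse 2 the median of the 10 genes in mouse 1 was 0.13, and without mouse 3 that in mouse 4 was -0.0037, so that its sign was not settled. The sign in mouse 2 was not settled either, at 0.0004 without mouse 1 and 0.0026 without mouse 4.

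The array of mouse 1 had a narrower range than the other 3: the tenth of genes with the lowest means had a median difference of 0.13 there, and the tenth with the highest means -0.23. Each array was therefore also centred within 10 classes of mean expression. The same 4 immediate early genes remained beyond 1.5-fold, against 9.71% of all genes so centred, with folds of 1.61 (Egr1), 1.52 (Ier3), 1.65 (Dusp1) and 1.66 (Klf6). The median difference of the 10 genes was then 0.18, -0.04, -0.13 and 0.07 in mice 1 to 4. By Dixon's ratio, which asks whether 1 mouse stands apart from the other 3, 0 of the 10 genes had such a mouse, against 5.75% of all genes. No p-value is attached to these counts, since the 4 livers are 1 group.

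**Figure D3:**
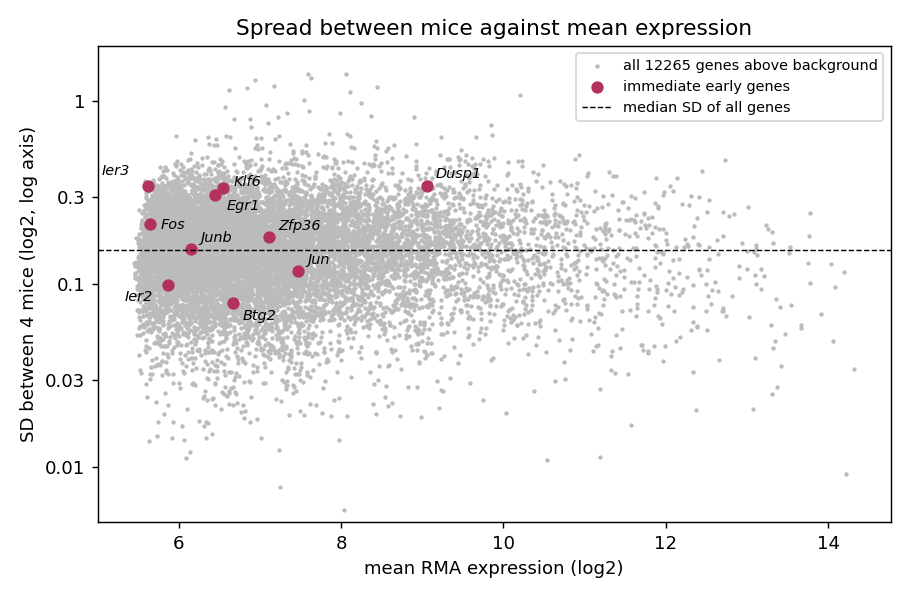
SD between the 4 mice (log2, log axis) against mean RMA expression (log2) for the 12265 genes above background (grey) and the 10 immediate early genes (coloured), with the median SD of all genes, 0.15, as a dashed line. Ier3, Klf6, Egr1 and Dusp1 lie high in the cloud at low, middle and high mean levels, and Btg2 and Ier2 lie below the line.

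A wider list of 92 other early genes was read in the same way. Of these, 88 were measured and 73 were above background, and 19 of the 73 (26.0%) varied by more than 1.5-fold, against the 12.9% of all genes given above. The other 15 measured genes were not above background on every array, among them Egr2 and the nuclear receptors Nr4a1, Nr4a2 and Nr4a3, which were picked for mention after their values were seen. Without mouse 1, 5 of these genes (Hes1, Nfil3, Plk3, Dusp6 and Zc3h12a) varied by more than 1.5-fold, against the 2.7% of all genes given above. The genes on this list were chosen with earlier results of these data known.

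In the list of EGR, NR4A and KLF family members, other nuclear regulators and growth arrest and survival genes, 7 of 30 genes above background passed the threshold. Gadd45g, a stress-induced gene of growth arrest, varied most of the 19 genes, at 7.11, 6.11, 6.23 and 6.48 in mice 1 to 4, a 2.01-fold difference. Phlda1 (8.01, 7.09, 7.33 and 7.61) and Id3 (8.26, 7.64, 7.66 and 8.02), an inhibitor of basic helix-loop-helix factors, were likewise highest in mouse 1. Nfil3 (7.59, 7.49, 7.35 and 8.01) and Hes1 (7.07, 6.61, 6.97 and 7.24) were highest in mouse 4. Irf1 (6.47, 7.02, 7.08 and 7.09) and Mcl1 (8.39, 8.97, 8.98 and 8.82), a factor of cell survival, were instead lowest in mouse 1, and after centring within classes of mean expression both fell short of the threshold, at 1.44-fold and 1.31-fold. In the AP-1 and ATF families, 1 of 10 genes above background passed, Batf3, at 6.75, 6.16, 5.93 and 5.78. Jund, the third Jun gene, stayed within the threshold at 7.65, 7.53, 7.72 and 8.06, and was named after its values were seen.

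Of the secreted, membrane and enzyme genes, 7 of 19 above background passed. Of the 7, 5 were highest in mouse 1, against 22.9% of all genes above background. Errfi1, an inhibitor of the EGF receptor, was measured at 11.67, 11.01, 11.15 and 11.51 in mice 1 to 4. Plk3 (7.89, 7.20, 7.25 and 7.82) and Trib1 (7.74, 7.09, 7.34 and 7.54) ran in the same order, and so did Egr1 and Zfp36 with mouse 1 highest and mouse 2 lowest. Arc (6.71, 5.97, 6.29 and 5.89) and Hbegf (6.33, 6.19, 5.83 and 5.63), a ligand of the EGF receptor, were also highest in mouse 1. Plk2 (6.21, 7.09, 7.15 and 6.92) and Rhob (6.17, 6.91, 6.76 and 6.74) were lowest there.

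The list of feedback genes held MAP kinase phosphatases like Dusp1, inhibitors of the Ras-ERK pathway and inhibitors of other pathways, such as NF-kB and JAK-STAT, and 4 of its 14 genes above background were beyond 1.5-fold, of which 0 were highest in mouse 1. Dusp6, a phosphatase of ERK, was measured at 7.02, 7.69, 7.90 and 7.23 in mice 1 to 4, a 1.85-fold difference. Mice 1 and 4 were thus low for Dusp6, and the same mice were high for Dusp1. Dusp10 (6.05, 6.85, 6.77 and 6.27) and Spred1 (6.31, 6.95, 7.01 and 6.78), an inhibitor of the Ras-ERK pathway, were also lowest in mouse 1. Zc3h12a, an RNase of inflammatory mRNAs, was measured at 5.57, 6.06, 5.46 and 6.01, highest in mouse 2.

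**Figure D4:**
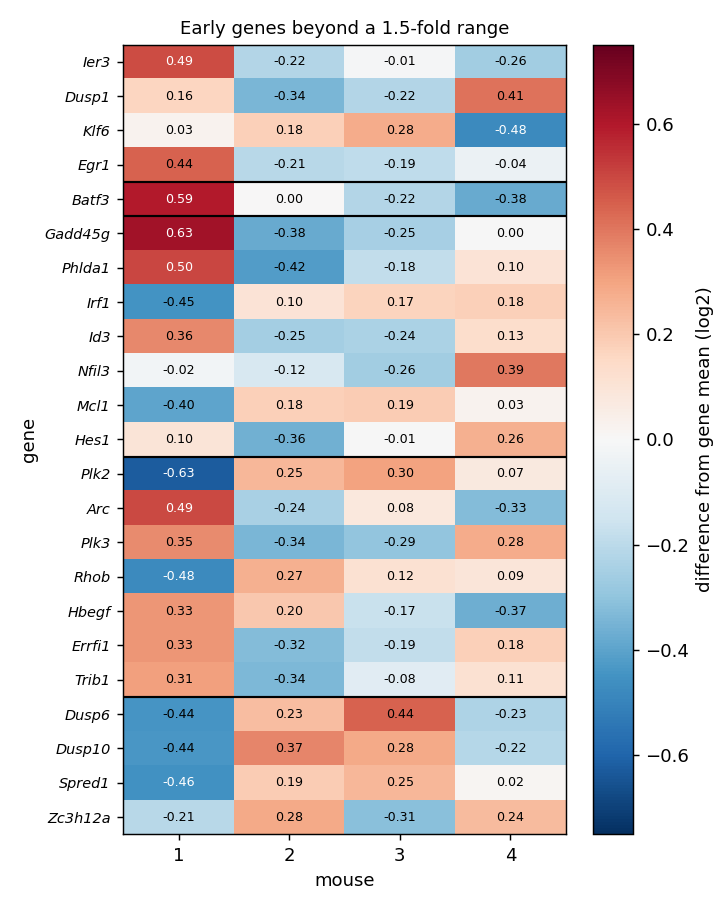
Deviation of each mouse from the mean of the gene (log2, printed in the cells and coloured) in mice 1 to 4, for Ier3, Dusp1, Klf6 and Egr1 (top) and, below them, the 19 other early genes that varied by more than 1.5-fold, with lines between the lists. Of these 19, mouse 1 held the highest value of 9 and the lowest of 7, against 22.9% and 46.1% of all genes above background.

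The kinases and factors that switch immediate early genes on passed the threshold at shares near or below the 12.9% of all genes. In the MAP kinase cascade 1 of 19 genes above background passed 1.5-fold, Mapkapk3, at 6.21, 5.57, 5.67 and 5.91 in mice 1 to 4, and Araf had the smallest SD, 0.06. Of the SRF, TCF and CREB factors, 2 of 16 passed, and Elk4, an SRF partner, was measured at 7.35, 8.01, 8.11 and 7.79. The other was Med23, a Mediator subunit (6.60, 6.82, 7.18 and 6.63), and the steadiest was Atf7, with an SD of 0.03. The mRNA level of a kinase or factor does not show its activity. The list for the control of mRNA decay held, among others, subunits of CCR4-NOT, through which Zfp36 and Btg2 act. Of its 19 genes above background 2 passed, both subunits of CCR4-NOT: Cnot2 (7.36, 7.71, 7.93 and 7.99) and Cnot9 (6.79, 7.28, 7.38 and 7.37), while Cnot10 had an SD of 0.03. Of the heat shock genes, a different stress response, 4 of 11 passed. All 4 were lowest in mouse 1, where 46.1% of all genes above background were lowest. They included Hsph1 (8.03, 8.62, 8.68 and 8.25), Bag3 (7.70, 8.31, 8.28 and 7.89) and Dnaja1 (9.66, 10.18, 10.27 and 9.89), and Hspa1a had the smallest SD, 0.05. After centring within classes of mean expression, 0 genes of the decay, SRF and heat shock lists were beyond 1.5-fold, and without mouse 1 this held for these lists and for the MAP kinase cascade.

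The cell make-up of the livers was read from marker lists on the same arrays, as the log2 of the summed linear level of a list. Immediate early genes are expressed in most cell types, and in whole liver fewer cells of a type and less RNA per cell cannot be told apart. Of 13 measured hepatocyte markers, 13 were above background and 0 varied by more than 1.5-fold, with a summed level between 16.82 and 16.92. This sum is weighted towards the highest genes, such as Alb, with a mean of 14.33. The highest values of the arrays lay between 14.48 and 14.53, and differences may be compressed there. Of 12 measured markers of pancreatic acinar cells, 10 were above background and all 10 of these varied by more than 1.5-fold, with summed levels of 11.81, 9.74, 10.04 and 11.56 in mice 1 to 4. Ctrb1, which encodes a chymotrypsinogen, had levels of 9.49, 6.58, 7.14 and 9.01, and Ctrl (8.91, 6.05, 6.75 and 8.65) and the carboxypeptidase gene Cpa1 (9.02, 6.31, 6.69 and 8.49) ran alike. Even the steadiest acinar marker, Cela1, differed in this way (8.17, 6.99, 7.18 and 7.94). The acinar markers were high in mice 1 and 4, as were Dusp1 and Zfp36, and their part in the values of those genes was not tested.

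Of 12 measured stellate cell markers, 11 were above background and 4 varied by more than 1.5-fold, with summed levels of 11.65, 12.34, 12.37 and 12.02 in mice 1 to 4. Without mouse 1, 0 of them did. Lrat, the enzyme that esterifies retinol for storage, was measured at 8.29, 9.23, 9.33 and 8.84, and the matrix genes Dcn (10.74, 11.58, 11.63 and 11.25) and Col1a2 (6.75, 7.53, 7.52 and 7.08) were likewise lowest in mouse 1. The markers did not move as one, since 7 of the 11 were lowest in mouse 1, against 46.1% of all genes above background. Colec11 was steady at 7.56, 7.52, 7.50 and 7.56. Their summed level was lowest in mouse 1, where Egr1 and Ier3 were highest and Jun, Dusp6 and Plk2 lowest, and their part was not tested. Macrophage markers (12 of 12 above background) had summed levels between 11.50 and 11.69, but 3 of them varied by more than 1.5-fold in opposite ways. The scavenger receptor gene Marco was highest in mouse 1 (7.06, 6.31, 6.14 and 6.63), and C1qb (8.00, 8.73, 8.78 and 8.49) and Vsig4 (7.90, 8.37, 8.55 and 8.53) were lowest there, while Cd14 was the steadiest, with an SD of 0.09. Endothelial markers (12 of 12) had summed levels between 11.17 and 11.38, and 1 varied by more than 1.5-fold, Lyve1 (7.52, 8.28, 8.05 and 7.71), while Vwf was the steadiest, with an SD of 0.05. Neutrophil and monocyte markers were largely undetected, 1 of 10 measured genes being above background, with summed levels of 8.71, 8.27, 8.38 and 8.40 and the highest in mouse 1. These sums come mostly from the 9 genes not above background, and the background limit was also highest in mouse 1, so they are not read as cell levels. Of 10 measured adipocyte markers, the cells in which the aP2 promoter is active, 7 were above background, with summed levels between 10.05 and 10.41, and 3 of the 7 varied by more than 1.5-fold. The 3 markers not above background on every array were Adipoq, Lep and Acvr1c, so adipocytes in these livers are not shown by the list. Plin1, which coats lipid droplets, was highest in mouse 1 (6.32, 5.90, 5.36 and 5.49), and Lpl (6.15, 7.05, 7.00 and 6.64) and Cidec (8.39, 8.98, 9.02 and 8.73) were lowest there. Fabp4, the gene whose promoter is called aP2, was the steadiest, at 6.22, 6.29, 6.28 and 6.32. Without mouse 1, 0 of the macrophage, endothelial and adipocyte markers were beyond 1.5-fold, while the 10 acinar markers all were. Of the cholangiocyte markers 3 of 6 measured were above background, and of the red blood cell markers 2 of 3, with 0 beyond 1.5-fold in either list. No marker was listed at 0. The summed level of the 10 immediate early genes themselves was 10.54, 10.27, 10.30 and 10.57 in mice 1 to 4. This linear sum is weighted towards Dusp1, the highest of the 10 (9.22, 8.71, 8.83 and 9.46), and has its order of mice. It is therefore not read as a shared trait of the 10 genes.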

How the data were processed

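Liver RNA of 4 aP2-SREBP-1c mice (150 ng, RIN > 8) was measured on 1 array each. The deposited values are log2 expression per probe set, computed by the authors with RMA (background correction, quantile normalization, summary of probes). The submitters' processing notes name Affymetrix Expression Console, while the sample labels name TAC software. The version, the genome build of the probe sets and which arrays were normalized together are not given in the sources used here. RMA pulls the arrays towards one distribution, so a shift shared by most genes is not visible, and low probe sets have compressed folds. No raw probe signals were used here. Precision is limited by having 4 arrays.

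Of 35556 probe sets, 21789 had 1 gene symbol, 1621 several and 12146 none, in GEO's platform annotation, and 21698 of the first matched a RefSeq gene identifier. A gene was represented by its probe set with the highest mean. Between arrays, correlations across genes above background were 0.974 to 0.993, and no pair of arrays had identical values in more than 25 probe sets. Mean ± SD, folds between the highest and the lowest mouse and distances between patterns were computed in Python 3.11.15 with numpy 2.4.6, pandas 2.3.3 and matplotlib 3.10.9, and the code was tested on simulated data. With 1 group no test between groups was made, and no correlation across 4 mice. Whether the mice shared litters is not given, so the SD holds biological and technical spread together.

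The 10 genes and all lists were chosen with earlier results of these data known. The genes named were the 10 members, up to 8 genes beyond 1.5-fold per list of other early genes, up to 3 beyond it and the steadiest gene of the upstream, decay and heat shock lists, and the 3 nearest genes of each member beyond 1.5-fold. Cell type lists are given as summed levels, with single genes taken by the rule of the upstream lists. Alternatives were each mouse left out, the mean of all probe sets, other scalings, other background limits, no filter and a 2-fold threshold. All sample columns were assigned to a mouse.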

Additional observations from a re-analysis of the deposited data

Results flagged for a closer look

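Of 63 named genes, 2 had 1 mouse standing apart from the other 3 by Dixon's ratio, which chance gives in about 1 of 20 groups. Irf1 differed by -0.60 on the log2 scale in mouse 1 from the mean of the other mice, and Cnot9 by -0.55. The background limit of mouse 1 stood apart in the same way, at 5.52. None of the 10 immediate early genes was among them.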

How the results depend on the processing

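The levels of the 10 immediate early genes moved by less than their spread between mice in 80 of 80 alternatives run. Most of these could not have come out otherwise. Leaving out 1 of 4 mice moves a mean by less than the SD, and centring arrays on their medians keeps the mean of a gene. With 1 probe set per gene, the mean of all probe sets was the same value. The median difference of the 10 genes in each mouse moved by less than the spread between mice in 28 of 28 alternatives. With 1 mouse left out, however, that of mouse 1 was as low as 0.13 (without mouse 2), and that of mouse 4 lay on either side of 0 (-0.0037 without mouse 3). That of mouse 2 also changed sign, at 0.0004 without mouse 1 and 0.0026 without mouse 4. Whether a gene was beyond 1.5-fold stayed the same in 76 of 80 alternatives, the 4 exceptions being Egr1 and Ier3 without mouse 1 and Dusp1 and Klf6 without mouse 4. Here too the mean of all probe sets could change nothing, and leaving out a mouse cannot widen a range. With 1 mouse left out, the number beyond 1.5-fold ranged between 2 and 4 for the 10 genes, between 5 and 16 for the other early genes and between 344 and 1294 for all genes. With the limit at the 99th percentile of the receptor probe sets, 5 of the 10 genes were above background and 2 were beyond 1.5-fold, Egr1 and Dusp1, against 1058 of 8898 genes (11.9%). At 2-fold the counts were 0 of the 10 genes, 1 of the other early genes and 138 of all genes, and with no filter on low values 3749 of all genes passed 1.5-fold. Among the counts with 1 mouse left out, the lowest for all genes and for the other early genes was the one without mouse 1. For the 10 genes the lowest were those without mouse 1 or mouse 4, and the cause was not tested. No paired analysis was possible because all 4 livers belong to 1 group. With 4 arrays and no control livers, the counts describe these mice, and values close to the background limit (Fos, Ier2, Ier3) are the least certain.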
